A study of Mus musculus with 40 samples.

Results

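The genes described here are the ubiquitin ligase, conjugase and protease genes whose symbols start with Usp, Ube2, Fbxw, Fbxl, Fbxo or Ubqln, with a pair of symbols left out by the rule. They were found on the arrays by their symbols alone, and 112 such genes were measured on at least 1 of 3 array designs, out of 37680 to 39003 genes and unnamed probes on the larger designs and 20727 on the smallest. They comprise 40 Usp genes, 27 Ube2 genes, 21 Fbxo, 11 Fbxl and 10 Fbxw genes and 3 Ubqln genes. The smallest design held 97 of them, the early design 111 and the design of the Nanog experiment all 112.

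The data are 40 two-colour arrays of mouse embryonic stem (ES) cells. In the first experiment, ZHBTc4 ES cells of strain 129/Ola, which carry a Pou5f1 transgene that tetracycline (Tet) shuts off and no working endogenous copy, were sampled before Tet (0 hr) and after every further 24 hr of Tet up to 120 hr, with 3 arrays for each of the 6 times (late arrays). In the second, the same line was sampled at 0 hr and after 3, 6, 12 or 24 hr, with 2 arrays for each time (early arrays). In the third, 12 arrays compared 4 lines in 3 media, namely the Nanog_integrated clone with its parental line ES129.3 (strain 129SvEv-Tac) and the Nanog_episomal clone with its parental line MG1.19 (strain 129Sv), each with LIF, without LIF and with LIF plus 1 µM retinoic acid (RA), at 1 array each. LIF is the cytokine that keeps mouse ES cells undifferentiated in culture. ZHBTc4 is a single line and each Nanog line is a single clone, so all p-values measure the spread between arrays of these lines, which may be technical. The growth protocol of the late arrays speaks of a different construct, the design text names other parental lines for the Nanog clones, and the pairing used here follows the strains in the labels. On every array the sample was labelled with Cy3 and a common reference RNA with Cy5, without dye swaps, and the values below are log2(sample/reference) unless stated. The reference is named as Universal Mouse Reference RNA for the late and Nanog arrays and as a Universal Mouse Reference cell line pool for the early arrays.

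Ubiquitin is joined to proteins in a relay of an activating enzyme, a conjugating enzyme (the Ube2 family) and a ligase that chooses the substrate. F-box proteins (Fbxw, Fbxl and Fbxo, named after the WD40 repeats, the leucine-rich repeats or the other domains that bind substrates) are the interchangeable substrate receptors of the SCF ligases, which are built on the cullin Cul1. Ubiquitin-specific proteases (Usp) remove the tag, and ubiquilins (Ubqln) carry tagged proteins to the proteasome. Not every gene so named acts on ubiquitin: Ube2f conjugates NEDD8, Usp18 removes ISG15, Usp39 lacks protease activity, Usp6nl is a GTPase-activating protein and Fbxl12os is a transcript opposite Fbxl12.

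The targeted gene was checked first. Pou5f1 measured 1.91, 2.40 and 2.04 on the late arrays at 0 hr and between -0.30 and 0.12 on all later ones. On the early arrays its brighter probe went from 3.97 and 3.97 to 3.46 and 3.38 by 24 hr, while its dimmer probe went from 2.92 and 1.52 to -0.53 and -0.61. Nanog measured 2.48, 2.00 and 2.49 in the Nanog_integrated clone with LIF, without LIF and with RA, above 1.61, 1.83 and 1.27 in ES129.3. It measured 1.28, 1.47 and 0.66 on the arrays labelled Nanog_episomal, below 1.91, 1.93 and 1.26 in MG1.19, so the direction of that comparison rests on the labels, and whether the probe reads the transgene is not known. Real-time PCR of Nanog in these clones belongs to the study's methods and was not analysed here. Of the listed ES cell markers 7 of 8 fell on the late arrays, their mean going from 2.86 to 3.13 at 0 hr to 1.28 to 1.32 at 120 hr. Of the trophoblast markers 8 of 11 rose, their mean going from between -0.56 and -0.24 to between 1.93 and 2.08. Of the fibroblast markers, which would mark feeder cells, 1 of 7 (Postn) rose, and the mean of the list went from between -2.29 and -2.06 to between -1.66 and -1.55. The part of these cell types in the changes below was not tested, and in such bulk samples fewer cells of a type and less RNA per cell cannot be told apart.

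Over 120 hr of Tet, the ubiquitin genes changed more often upward than downward. A gene was called when limma's F test over all times passed an adjusted p (Benjamini-Hochberg) of 0.05 and the largest change reached 1.5-fold. Of the 97 genes, 33 rose and 11 fell, or 45.4%, against 24.5% of all features and 34.7% of the features that carry a gene symbol. By direction, 14.2% of all features rose and 10.4% fell. When only features with a symbol were tested, 57.2% of their calls were higher and 42.8% lower. The shares by time below are over all features, named or not. Of the 25 conjugases 11 rose and 1 fell, of the 35 proteases 12 rose and 4 fell, of the 34 F-box genes 9 rose and 5 fell, and of the 3 ubiquilins 1 rose and 1 fell. The median change at each gene's own peak was 0.52 for the conjugases, 0.23 for the proteases and 0.13 for the F-box genes, and -0.02 for all features. The number of genes higher than at 0 hr by the test of a single time was 8, 12, 21, 29 and 31 at the 5 times in order, where 3.96%, 5.45%, 7.92%, 10.5% and 12% of all features were higher. The number lower was 5, 4, 6, 8 and 8, where 3.62%, 4.79%, 6.4%, 7.26% and 8.53% of all features were lower. In all 44 called genes the usable arrays of the peak time did not overlap those of 0 hr. Of all features 23.3% were called and without overlap, by a stricter rule that also required no missing spot at either time.

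**Figure D1:**
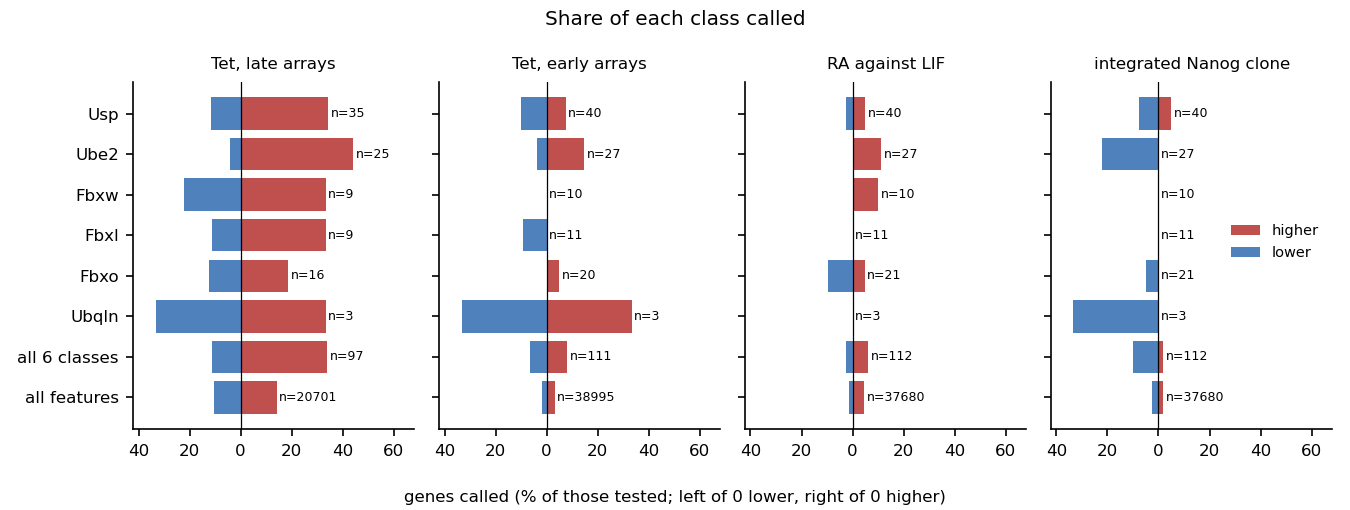
Percentage of genes called in each class and among all features (rows), to the right of 0 where higher and to the left where lower, in 4 comparisons (panels), with the number of genes tested beside each bar. On the late arrays 11 of 25 Ube2 genes were higher and 1 lower, and in the integrated Nanog clone 6 of 27 Ube2 genes were lower and none higher.

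Among the conjugases, Ube2q2 rose most. It measured 0.94, 0.62 and 0.68 at 0 hr, 1.81, 1.79 and 1.75 at 48 hr and finally, at 120 hr, 3.36, 2.95 and 2.96, or 5.07-fold higher (log2 2.34, SE 0.112, adjusted p = 1.41e-11 by limma's F test). All arrays from 48 hr on lay above those of 0 hr. On the early arrays Ube2q2 stayed between 0.40 and 0.73 at every time. Ube2a and Ube2b are mammalian counterparts of yeast Rad6, which marks histones and the DNA clamp PCNA. Ube2a was high early, at 0.74, 0.64 and 0.79 at 0 hr, at 2.24 and 2.13 on the 2 usable arrays of 24 hr, and at 0.85, 0.83 and 0.88 at 120 hr (log2 1.46 at 24 hr, SE 0.0591). Its paralog Ube2b was not called at 24 hr and climbed from -0.90, -0.77 and -0.64 at 0 hr to 0.57, 0.43 and 0.53 at 120 hr (log2 1.28, SE 0.0812). On the late arrays the paralogs thus peaked at opposite ends of the time course. At 24 hr on the early arrays, with the same probe sequences, Ube2a changed by 0.24 and was not called. Ube2b was called there at 1.27, of which 0.29 was in Cy3.

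Ube2e1, Ube2e2 and Ube2e3 encode closely related conjugases with an N-terminal extension, and all 3 rose. Ube2e1 measured -1.61, -1.55 and -1.45 at 0 hr, -0.32, -0.03 and -0.22 at 72 hr and finally, at 120 hr, 0.62, 0.70 and 0.64, or 4.58-fold higher (SE 0.0841 on the log2 scale, adjusted p = 3.46e-12 by limma's F test). Ube2e2 went from -1.79, -1.82 and -1.91 at 0 hr to -0.74, -0.87 and -0.87 at 120 hr (log2 1.01). Ube2e3 went from -0.12, -0.22 and -0.08 at 0 hr to a peak of 0.69, 0.86 and 0.76 at 72 hr (log2 0.91). Their 24 hr values differed, since Ube2e3 was already at 0.38, 0.29 and 0.26, Ube2e1 at -1.24 and -1.28 on its 2 usable arrays, and Ube2e2 at -2.02, -1.99 and -1.97, below all 0 hr arrays. The genes Ube2e1 and Ube2e2 lie on the same strand of chromosome 14, and the 200 bases before their starts, from RefSeq on build GRCm38.p6, are chr14:18331845-18332044 and chr14:18893772-18893971, both on the minus strand. They are shown because both genes recur in the comparisons below. Capitals mark CCAAT and GGGCGG on either strand, and neither window held TTTGAA or the octamer ATGCAAAT that POU5F1 can bind.
Ube2e1: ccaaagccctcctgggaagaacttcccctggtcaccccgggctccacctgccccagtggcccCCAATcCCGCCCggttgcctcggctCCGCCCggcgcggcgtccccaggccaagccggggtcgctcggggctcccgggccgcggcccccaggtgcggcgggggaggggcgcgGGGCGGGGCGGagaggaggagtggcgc
Ube2e2: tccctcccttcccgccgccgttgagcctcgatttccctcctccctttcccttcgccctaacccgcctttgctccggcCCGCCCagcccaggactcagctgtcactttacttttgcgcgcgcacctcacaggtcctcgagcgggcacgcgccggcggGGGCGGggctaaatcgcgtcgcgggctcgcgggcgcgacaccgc
The Ube2e1 window held 4 matches of GGGCGG, of which the last pair overlap, and 1 of CCAAT, and the Ube2e2 window 2 and 0. Of the 84 ubiquitin genes with a promoter in the RefSeq table, 61.9% held GGGCGG and 26.2% held CCAAT in this window, against 31.3% and 30% of 27025 promoters, and 1.2% against 1.4% held the octamer.

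The single conjugase that fell was Ube2c, which works with the anaphase-promoting complex to end mitosis. It was first at 1.63, 1.52 and 1.34 at 24 hr against 0.93, 0.89 and 0.97 at 0 hr, and by 120 hr fell to -0.40, -0.17 and -0.37 (log2 -1.25, SE 0.0785, 2.37-fold lower). The difference at 24 hr, 0.57 on the log2 scale, was just under the 1.5-fold limit. Fbxo5, the F-box protein also known as Emi1 that inhibits the same complex, took the same course. It measured 0.96, 1.05 and 1.08 at 0 hr, 1.60, 1.58 and 1.47 at 24 hr, 0.73, 0.70 and 0.66 at 72 hr and by 120 hr it fell to -0.44, -0.50 and -0.50 (log2 -1.51, SE 0.0614, adjusted p = 2.28e-13 by limma's F test). Both genes lay above 0 hr on every late array of 24 hr and below it on every array of 72 hr and later. At 24 hr on the early arrays Ube2c, with another probe sequence, changed by -0.02 and Fbxo5 by -0.35, and neither was called. Their log2 Cy3 intensities changed there by 0.04 and 0.02. Of 10 listed mitosis genes 6 fell and 3 rose, among them Bub1 (log2 -1.21), Top2a (-1.10) and Ccnb2 (-0.80) at 120 hr, and Ccna2 (1.09) at 48 hr. The 200 bases before the starts of Ube2c (chr2:164769729-164769928, plus strand) and Fbxo5 (chr10:5805466-5805665, minus strand) are shown because these genes fell together. The capitals mark CCAAT boxes and TTTGAA, letters found in the paired elements of many cell cycle promoters, and GGGCGG, each on either strand.
Ube2c: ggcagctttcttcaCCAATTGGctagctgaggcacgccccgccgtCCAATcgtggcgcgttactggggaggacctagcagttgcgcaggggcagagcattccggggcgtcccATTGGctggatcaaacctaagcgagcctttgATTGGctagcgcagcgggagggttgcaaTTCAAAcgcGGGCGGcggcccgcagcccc
Fbxo5: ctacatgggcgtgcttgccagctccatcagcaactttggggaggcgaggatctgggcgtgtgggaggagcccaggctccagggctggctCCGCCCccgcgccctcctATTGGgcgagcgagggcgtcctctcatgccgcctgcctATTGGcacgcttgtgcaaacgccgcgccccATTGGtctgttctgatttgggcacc
The Ube2c window held 5 matches of CCAAT, a pair of them overlapping, 1 of TTTGAA and 1 of GGGCGG, and the Fbxo5 window 3, 0 and 1.

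**Figure D2:**
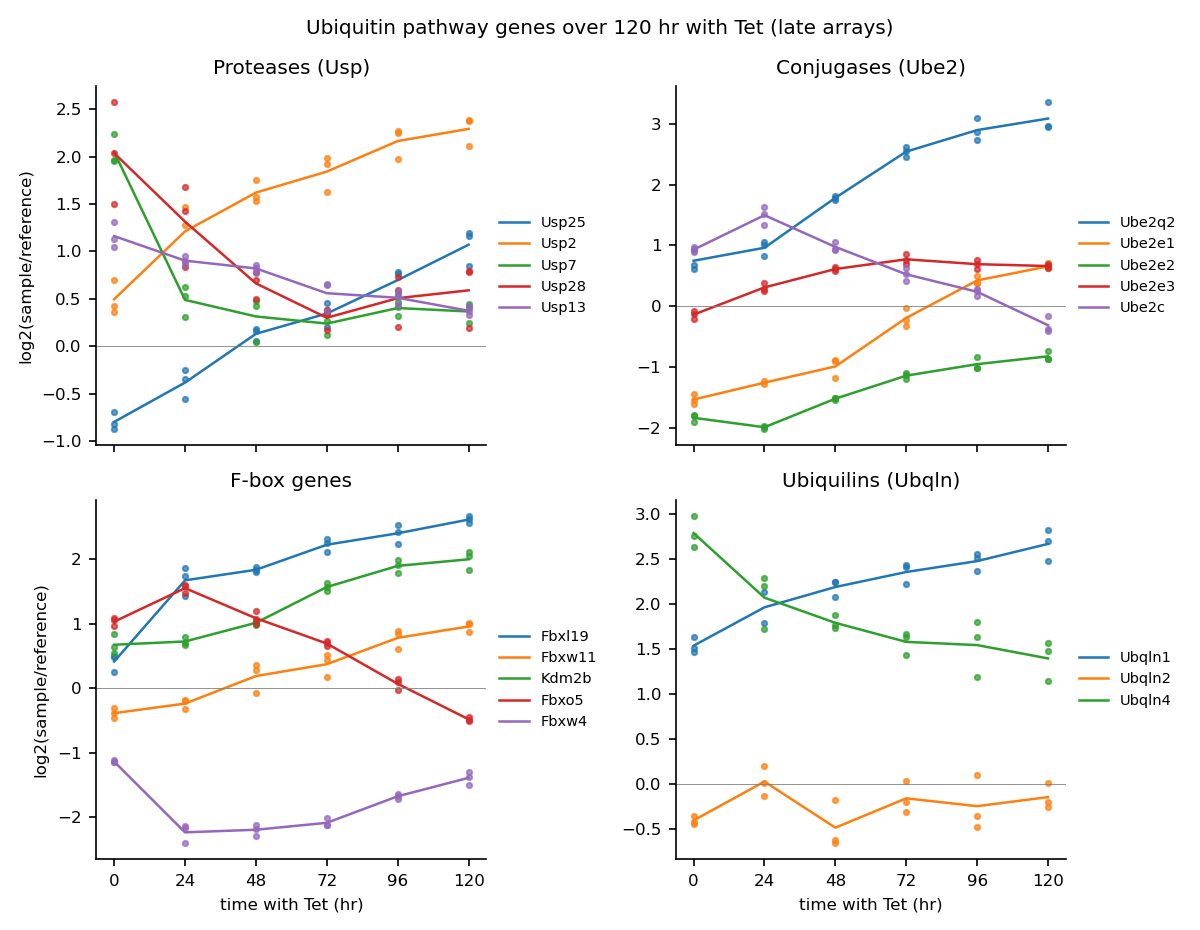
Log2(sample/reference) of 18 genes in 4 classes (panels) against time with Tet in hr on the late arrays, points being arrays and lines the means of 3 arrays (fewer where a spot was left out). Ube2q2, Fbxl19 and Usp2 climbed throughout, Usp7 dropped within 24 hr, and Ube2c and Fbxo5 were higher at 24 hr and lower from 72 hr on.

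The other conjugases that rose were Ube2l3, Ube2o, Ube2f, Ube2z and Ube2j2. Ube2o, a large enzyme with both conjugase and ligase activity, rose by 1.42 at 120 hr, with a single usable array at 0 hr. Ube2l3, a partner of HECT and RBR ligases, rose by 1.44 at 72 hr on its brighter probe, while its other probe changed by 0.17. Ube2j2, a conjugase of the endoplasmic reticulum membrane, rose by 0.89 on its brighter probe and changed by -0.16 on the other. Those 2 genes are therefore uncertain. Ube2t, which acts in repair of crosslinked DNA, was lower by 0.53 at 120 hr on all 3 arrays, under the 1.5-fold limit.

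Among the proteases, Usp7 and Usp28 fell most. Usp7, which deubiquitinates Mdm2 and p53, measured 1.95, 1.96 and 2.24 at 0 hr, 0.63, 0.53 and 0.31 at 24 hr and, at its lowest (72 hr), 0.11, 0.34 and 0.26 (log2 -1.81, SE 0.113, 3.51-fold lower, adjusted p = 1.94e-09 by limma's F test). Most of the fall was complete by 24 hr, and no later array came near the level of 0 hr. Usp28, known for stabilising Myc, measured 2.04, 1.5 and 2.57 at 0 hr, 1.43, 1.68 and 0.83 at 24 hr and, at its lowest (72 hr), 0.17, 0.35 and 0.38 (log2 -1.74, SE 0.244), with replicates more scattered than those of other called genes. Its closest paralog Usp25 went the other way, from -0.82, -0.87 and -0.70 at 0 hr through 0.06, 0.16 and 0.18 at 48 hr to 0.85, 1.16 and 1.2 at 120 hr (log2 1.87, SE 0.1, 3.65-fold higher). Each gene's arrays of the last 3 times lay entirely on one side of its 0 hr arrays. Usp2, which stabilises cyclin D1 and Mdm2, rose from 0.43, 0.36 and 0.70 at 0 hr to 1.47, 1.28 and 0.88 at 24 hr and 2.11, 2.38 and 2.39 at 120 hr (log2 1.80, SE 0.141).

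Usp18, the interferon-induced protease of ISG15, was highest at the end. It was not above the negative controls on any array of 0 hr, and at 120 hr, at -2.12, -2.06 and -2.01, it was at least 2.47-fold higher. Usp27x, a relative of the SAGA protease Usp22, rose by 1.03 at 120 hr, from 0.44, 0.40 and 0.60 to 1.32, 1.60 and 1.60. Usp16, which removes ubiquitin from histone H2A, rose by 0.79 at 96 hr. The other proteases that rose, by 0.69 to 0.99, were Usp15, Usp1, Usp40, Usp12, Usp38, Usp33 and Usp3, and those that fell were Usp13 (-0.79), a relative of the ubiquitin chain protease Usp5, and Usp45 (-0.67), both at 120 hr. The remaining 19 proteases were not called.

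Among the F-box genes, Fbxl19 and Kdm2b, formerly Fbxl10, encode related proteins that bind unmethylated CpG islands. Fbxl19 was not above the negative controls on any array of 0 hr, where it measured 0.50, 0.26 and 0.49, and it reached 1.86, 1.74 and 1.42 at 24 hr and 2.56, 2.62 and 2.67 at 120 hr, at least 4.36-fold higher. Kdm2b, a histone demethylase that recruits a Polycomb complex, started later, from 0.63, 0.55 and 0.84 at 0 hr to 0.80, 0.68 and 0.70 at 24 hr and 1.84, 2.11 and 2.05 at 120 hr (log2 1.32, SE 0.0803). Its 24 hr arrays overlapped those of 0 hr and its later arrays did not. By the ratio, the first-day rise of Fbxl19 was not seen on the early arrays, which carry the same probe sequence. Fbxl19 started there at 1.49 and 1.16, changed by -0.11 by 24 hr and was not called. Its log2 Cy3 intensity changed there by 0.51 and its log2 Cy5 intensity by 0.62. Fbxw11, the beta-TrCP paralog that targets beta-catenin and inhibitors of NF-kappa-B, rose from -0.39, -0.46 and -0.30 to 0.87, 1.01 and 1.00 (log2 1.34, SE 0.108). Fbxo21 peaked at 48 hr, at 2.03, 1.96 and 2.00 against 0.81, 0.76 and 0.81 at 0 hr (log2 1.2). Fbxw8, which pairs with Cul7, rose by 1.04, and Fbxl12, Fbxo36, Fbxo38 and Fbxw2 rose by 0.61 to 0.97.

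Besides Fbxo5, the F-box genes that fell included Fbxw4, Fbxw5 and Fbxo8. Fbxw4 dropped at once, from -1.11, -1.15 and -1.15 at 0 hr to -2.14, -2.17 and -2.39 at 24 hr (log2 -1.10, SE 0.0688), and came back to -1.49, -1.30 and -1.37 at 120 hr. Fbxw5 fell by 0.77 at 72 hr, from -0.26, -0.22 and -0.12 to -0.98, -0.95 and -0.98, and Fbxo8 by 0.61 at 96 hr. Fbxw7, the receptor for Myc and cyclin E, was not called and lay between 0.63 and 1.07 on all 18 arrays. Fbxo32, a ligase of muscle atrophy, was higher by 0.48 at 120 hr, under the 1.5-fold limit.

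The ubiquilins diverged. Ubqln1 went from 1.51, 1.47 and 1.64 at 0 hr to 2.48, 2.71 and 2.83 at 120 hr (log2 1.13, SE 0.101), and Ubqln4 from 2.98, 2.63 and 2.76 to 1.15, 1.57 and 1.48 (log2 -1.39, SE 0.16). Ubqln2 was not called (adjusted p = 0.061 by limma's F test), at -0.35, -0.42 and -0.44 at 0 hr and 0.02, -0.20 and -0.25 at 120 hr.

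The rest of the pathway, from lists that do not overlap these genes, gave a mixed picture on the late arrays. Of 5 activating enzymes none was called, with 2 at an unadjusted p under 0.05. Of 9 cullins and SCF core genes 5 rose, among them Cul1 (1.33) and Cul7 (1.32), and Rnf7, a RING subunit, fell by 1.49. Of 12 genes of the anaphase-promoting complex and its activators 5 rose and 3 fell, with Anapc1 at 1.45 and Cdc20 at -0.71. Of 13 other ubiquitin proteases 5 rose, led by Stambp (1.54), and 2 fell, led by Uchl1 (-1.71). Of 37 proteasome genes 6 rose and 4 fell, and the largest change was that of Psme2 (2.13), a subunit of the interferon-induced activator.

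On the early arrays, which cover the first day of Tet, 9 of 111 genes rose and 7 fell, or 14.4%, against 5.17% of all features (3.22% higher and 1.95% lower) and 9.03% of those with a symbol. By limma's test of a single time no gene was called at 3 hr (0% of all features), with 11 at an unadjusted p under 0.05. The number higher was 5, 2 and 17 at the later times in order (1.97%, 0.215% and 6.88% of all features), and the number lower was 0, 3 and 7 (0.0923%, 0.382% and 1.93%). Without one or the other 0 hr array 7 and 8 genes were called, and 1 with the error variance of the study's methods. The split between higher and lower calls depended on the reference channel. For 6 of the 9 genes that rose, the larger part of the change of the ratio was a fall of the Cy5 reference and not a rise of the Cy3 sample, which was so for none of the 7 that fell and none of the 44 called on the late arrays. Ube2h, a conjugase that acts with the CTLH ligase complex, showed this most. Its ratio went from 0.41 and 0.40 at 0 hr to 1.76 and 2.44 at 24 hr (log2 1.69, SE 0.251), while its log2 Cy3 intensity changed by 0.21 and its log2 Cy5 intensity by -1.49. With the Cy3 intensities quantile normalized between arrays and used without Cy5 (Cy3 alone), 2 genes were higher and 12 lower. With Cy5 corrected for bleaching 5 were higher and 8 lower, and with the deposited normalized values of the sample channel 1 was higher and 11 lower. Of the early time course calls over all features, 62.3% were higher by the ratio, against 36.7%, 35.8% and 22.7% by those 3 alternatives.

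**Figure D3:**
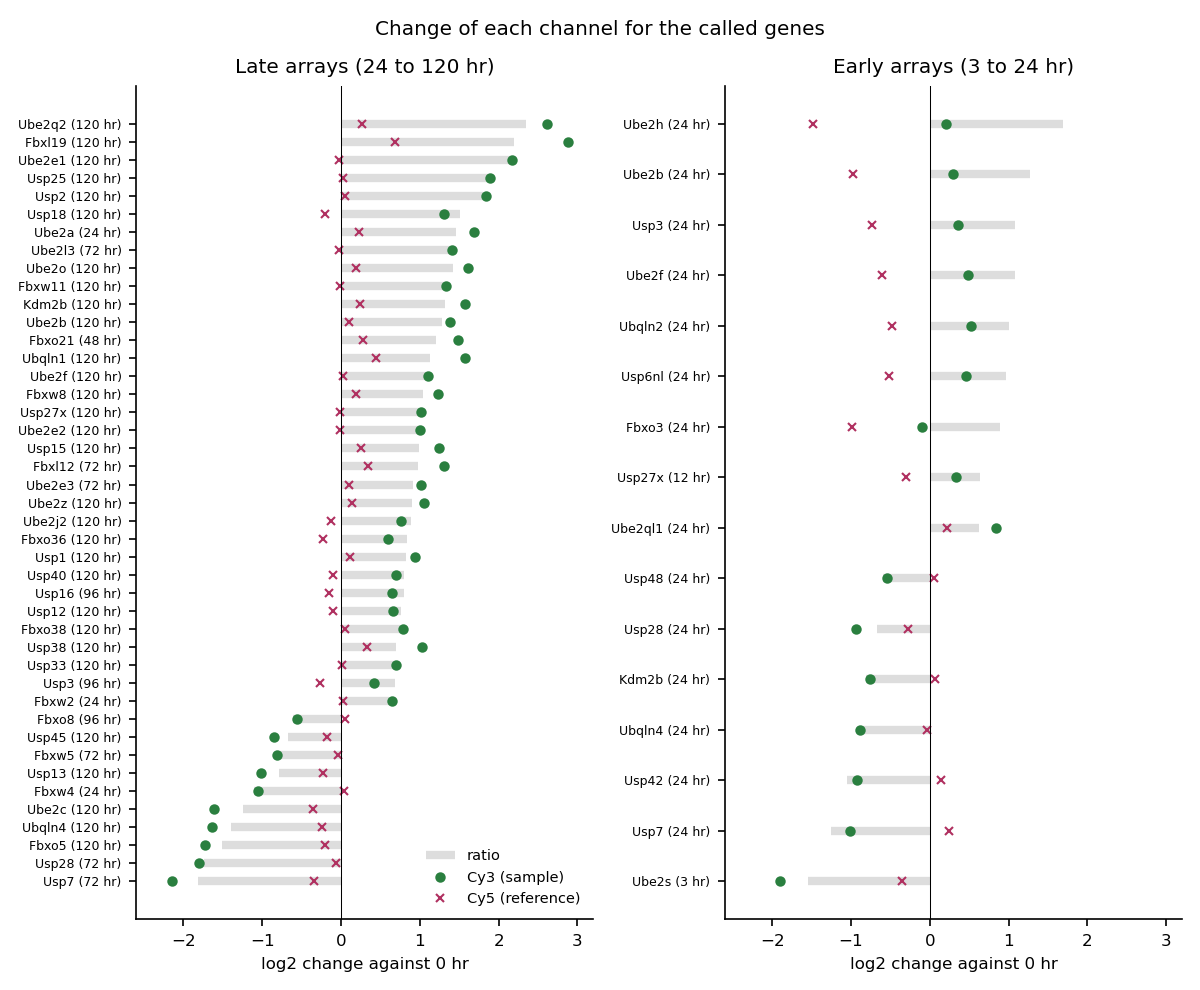
Change against 0 hr at the peak time (in brackets) of the genes called and reported here on the late arrays (left) and the early arrays (right), on the log2 scale, as the ratio (grey bar), the Cy3 sample intensity (circle) and the Cy5 reference intensity (cross). On the late arrays circles lie near the ends of the bars, while for Ube2h, Ube2b, Usp3, Ube2f, Usp6nl and Fbxo3 on the early arrays the cross lies farther from 0 than the circle.

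The genes that fell did so in the sample channel. Usp7 fell stepwise, from 1.53 and 1.57 before Tet through 1.22 and 1.27 (6 hr) and 0.96 and 0.75 (12 hr) to 0.30 and 0.29 (24 hr) (log2 -1.26, SE 0.0932, adjusted p = 0.00038 by limma's F test), the Cy3 intensity changing by -1.02. Usp42, known to act on p53 and histone H2B, fell from 1.47 and 1.43 to 0.49 and 0.30 (log2 -1.05, SE 0.124), although on the late arrays it was not called and lay between 0.09 and 1.12. Ubqln4 fell from 2.22 and 2.15 to 1.27 and 1.40 (log2 -0.85, SE 0.0861) and Usp28 from 1.27 and 1.26 to 0.61 and 0.59 (log2 -0.66). Kdm2b fell from 1.16 and 1.40 to 0.44 and 0.49 (log2 -0.82, SE 0.11), where the late arrays of 24 hr overlapped those of 0 hr. Usp48 fell by 0.60. Ube2s, which extends ubiquitin chains for the anaphase-promoting complex, was lowest at 3 hr, at 0.25 and 0.46 against 2.19 and 1.62 at 0 hr, and was back at 2.12 and 2.01 at 24 hr (log2 -1.55 at 3 hr, SE 0.281, adjusted p = 0.0242 by limma's F test). All 3 of its probes were lower at 3 hr, by 1.55, 1.35 and 0.85, although the test of that time alone called no feature, and on the late arrays Ube2s was not called.

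Of the genes that rose on the early arrays, Ube2ql1 (0.62 at 24 hr) had the larger part in Cy3, at 0.85. Ubqln2 (1.01) and Usp27x (0.64 at 12 hr) were divided nearly evenly between the channels. Ube2b rose by 1.27, of which 0.29 was in Cy3, Usp3, which removes ubiquitin from histones, by 1.09 with 0.35 in Cy3, and Fbxo3 by 0.89 with -0.09 in Cy3. Ube2f rose by 1.08 and Usp6nl by 0.97. Usp25 went from -0.99 and -0.85 to 0.09 and 0.58 by 24 hr, its Cy3 changing by 0.42 and its Cy5 by -0.84. It was not called over all times (adjusted p = 0.0777 by limma's F test). Usp9x, a large X-linked protease, went from 1.11 and 1.12 to -0.07 and 0.33 at 24 hr and was likewise not called (adjusted p = 0.113 by limma's F test), nor were Fbxo5, Ube2c, Ube2t, Fbxw7 and Fbxo32.

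The time of 24 hr was measured in both experiments, on different designs. Of the 96 genes on both, 55 changed in the same direction, and 6184 of 11257 genes did so overall. Of those called in both by the test of that time alone, 6 agreed in direction and 1, Fbxw4, did not. Over all genes 343 agreed and 46 did not, so the ubiquitin genes lay near the share of all genes. Fbxw4, Fbxl12 and Usp2 were not called on the early arrays by the F test over all times. In the late arrays Fbxw4 fell by 1.10 at 24 hr, while in the early arrays it was higher by 1.64, where its log2 Cy3 intensity went from 8.15 and 8.38 to 8.40 and 8.44 and its Cy5 intensity from 10.2 and 10.3 to 9.0 and 8.5. The correlation of the changes over the 96 genes was 0.29 by the ratio and 0.50 by Cy3 alone, as a description of genes that share their arrays. By the ratio it was also 0.29 over all 11257 genes. The SD of the Cy5 change over these genes was 0.17 in the late and 0.43 in the early arrays.

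**Figure D4:**
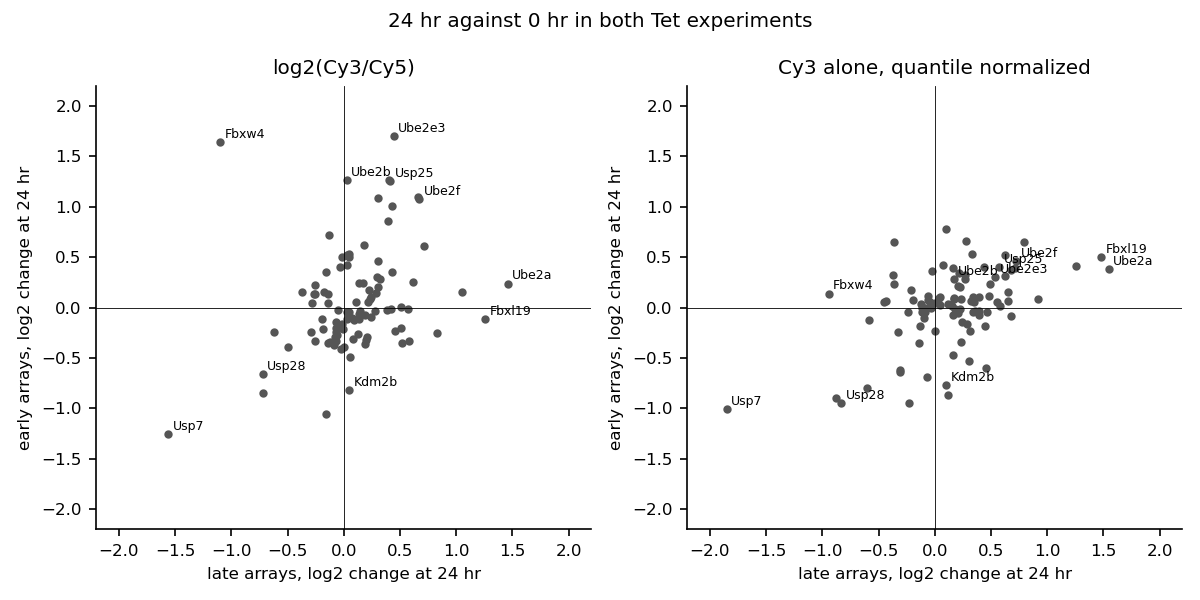
Log2 change at 24 hr against 0 hr on the late arrays (x axis) and the early arrays (y axis) for the 96 genes on both designs, by the ratio (left) and by Cy3 alone (right), each point being a gene. Usp7 was lower in both panels, and Fbxw4, at top left by the ratio, was higher on the early arrays by 1.64 there and by 0.14 by Cy3 alone.

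In the Nanog experiment the lines served as replicates of a medium, with the line as a block, and 2 of the 4 lines derive from the other 2. Without LIF, 2 genes rose and 1 fell (2.68%), against 0.947% of all features (0.443% higher and 0.504% lower) and 2.04% of those with a symbol. Usp25 was higher by 0.93 (SE 0.167, adjusted p = 0.0376 by limma), by 0.76 in the Nanog_integrated clone, 0.51 in ES129.3, 1.43 in the arrays labelled Nanog_episomal and 1.02 in MG1.19. Ube2e1 was higher by 0.66 (adjusted p = 0.0471 by limma) and Fbxo6, a receptor for glycoproteins, was lower by 0.60 (adjusted p = 0.0462 by limma), each in 4 of 4 lines. With RA, Fbxo6 was higher by 0.56 in 4 of 4 lines, under the 1.5-fold limit, and both comparisons share the LIF arrays. These adjusted p-values lie close to the limit, and no gene was called without the Nanog_integrated clone, without MG1.19, after the bleaching correction or with the error variance of the study's methods, and 1 was without the arrays labelled Nanog_episomal. The second probes of Usp25 and Ube2e1 changed by 0.37 and 0.44. Ubqln2 (1.11, adjusted p = 0.0793), Ube2e2 (0.80, adjusted p = 0.0647) and Ube2e3 (0.63, adjusted p = 0.117 by limma) were also higher in 4 of 4 lines and did not pass. Without LIF all 4 lines were higher for 28 and lower for 9 of the 112 genes, against 12.8% and 10.2% of all features.

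With RA, 7 genes rose and 3 fell (8.93%), against 5.86% of all features (4.65% higher and 1.21% lower) and 11.1% of those with a symbol. Usp25 rose most, by 1.29 (SE 0.167, adjusted p = 0.00164 by limma), by 1.05 in the Nanog_integrated clone, 0.96 in ES129.3, 2.03 in the arrays labelled Nanog_episomal and 1.10 in MG1.19. Its dimmer second probe changed by 0.33. Fbxo4, a receptor linked to cyclin D1 turnover, rose by 0.90, by 0.82, 0.34, 1.61 and 0.83 in the same order of lines. Ube2e2 rose by 0.86, by 0.94, 0.29, 1.49 and 0.73, and Ube2e3 rose by 0.70, while Ube2e1 was higher by 0.30 and did not pass (adjusted p = 0.18 by limma). In each of these genes the arrays labelled Nanog_episomal showed the largest difference. Fbxw4 (0.75), Ube2ql1 (0.63) and Usp40 (0.62) rose as well.

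The 3 genes that fell with RA were Fbxo5, Usp28 and Fbxo22. Fbxo5 was lower by 0.55 in the Nanog_integrated clone, 0.93 in ES129.3, 0.55 in the arrays labelled Nanog_episomal and 1.37 in MG1.19 (log2 -0.85, SE 0.164, adjusted p = 0.0102 by limma). None of the 10 mitosis genes was called with RA, with an unadjusted p under 0.05 in 4. Usp28 fell by 0.66 and Fbxo22, a receptor for lysine demethylases, by 0.64, both in 4 of 4 lines. Of the 10 genes called with RA 9 were measured on the late arrays, where 7 were called (7 of the 44 called there), 6 of them in the same direction. The exception was Fbxw4. Of all 1344 genes called with RA and measured on the late arrays, 73.3% were called there, 87.1% of these in the same direction, so the ubiquitin genes lay near the share of all genes. With RA all 4 lines were higher for 31 and lower for 15 of the 112 genes, against 17.5% and 13.2% of all features. Usp25, Usp28 and Fbxo5 thus moved the same way on the late arrays and with RA, in other lines and on other arrays. With RA 6 of 12 trophoblast, 5 of 7 primitive endoderm and 3 of 7 fibroblast markers were higher, and the mean of the fibroblast list ranged from -2.17 to -1.68 with LIF and from -1.90 to -0.71 with RA. The part of such cells in these results was not tested. The count of calls fell to 4 without MG1.19 and to 6 without ES129.3.

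**Figure D5:**
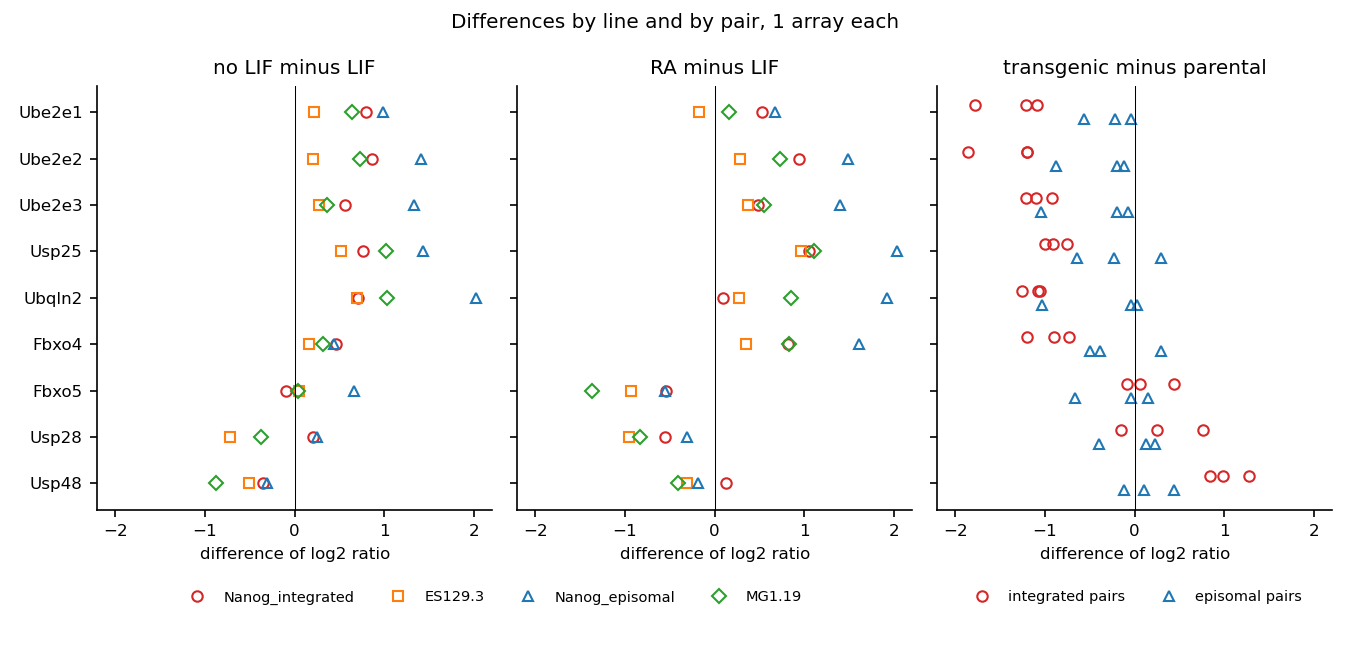
Differences of log2(sample/reference) for 9 genes (rows) without LIF (left) and with RA (middle) against LIF in each of 4 lines, and between each Nanog clone and its parental line in 3 media (right), each symbol resting on 1 array per condition. Usp25 was higher without LIF and with RA in all 4 lines, and the 3 Ube2e genes were lower in 3 of 3 integrated pairs and, by a smaller difference in each medium, in 3 of 3 episomal pairs as labelled, which would be higher if those labels were exchanged.

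Over the 6 pairs of a Nanog clone with its parental line no gene of the 112 was called by limma, against 2 of 37680 features (0.00531%). At an unadjusted p under 0.05 there were 41, or 36.6%, against 19.5% of all features, and with background and medium as additive terms in place of pairs 1 gene was called. Pairs of one background share a clone, so these p-values are too small for 2 clones. Of the 112 genes 21 were lower and 3 higher in all 6 pairs, against 7.51% and 4.69% of all features. Counts by sign in all pairs or lines, and by unadjusted p, were not set against features with a symbol alone. With the sign of the episomal pairs turned, which was tried after the data had been seen, 2 were lower and 4 higher in all 6, against 1.13% and 2.57% of all features. Among the genes with the same sign in all 6 pairs as labelled, the lowest were Ube2e2 (-0.91), Ube2e1 (-0.82) and Ube2e3 (-0.76, adjusted p = 0.0942 by limma). With the sign of the episomal pairs turned they were at -0.51, -0.54 and -0.32. The 3 higher in all 6 pairs were Ube2o (0.31), Usp37 (0.21) and Fbxo3 (0.16). Others had larger means without the same sign in all 6, among them Usp48 (0.59) and Usp42 (0.44).

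In the integrated clone alone, set against ES129.3 over 3 media, 2 genes were higher and 11 lower (11.6%), against 4.12% of all features (1.7% higher and 2.42% lower) and 7.47% of those with a symbol. The conjugases made up 6 of the 11. Ube2e2 measured -1.85, -0.99 and -0.91 with LIF, without LIF and with RA in the clone and 0.01, 0.21 and 0.29 in ES129.3 (log2 -1.42, SE 0.152, adjusted p = 0.0167 by limma). Ube2e1 measured -1.66, -0.87 and -1.13 in the clone and 0.12, 0.34 and -0.05 in ES129.3 (log2 -1.36), and Ube2e3 -0.73, -0.16 and -0.25 against 0.48, 0.76 and 0.86 (log2 -1.08). For all 3 genes every array of the clone lay below every array of ES129.3. The second probes of Ube2e1 and Ube2e3 were lower too, by 0.69 and 0.69. Ubqln2 was lower by 1.13, Fbxo4 by 0.94, Usp25 by 0.89, Usp39, a splicing factor, by 0.87, Ube2v2, a partner of Ube2n without its own active site, by 0.70, Usp6nl by 0.67, Ube2ql1 by 0.64 and Ube2f by 0.60. The second probe of Usp25 changed by -0.12. Usp48, known to act on histone H2A, was the most raised, at 2.81, 2.45 and 2.94 in the clone and 1.97, 1.47 and 1.66 in ES129.3 (log2 1.03, SE 0.0979), and Usp42 was higher by 0.63. Of the 13 genes 10 were measured on the late arrays and 5 were called there, none in the same direction. Of all 857 genes called in the clone and measured on the late arrays, 65.7% were called there, 20.2% of these in the same direction.

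This comparison is of 1 clone with 1 line. With the error variance of the study's methods no gene was called, and without the pair in LIF 6 were, or 8 without the pair grown without LIF.

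The arrays labelled Nanog_episomal did not differ from MG1.19 in any called gene, among the 112 or among all features, and 12 of the 112 had an unadjusted p under 0.05 against 8.24% of all features. The 3 Ube2e genes were lower in 3 of 3 pairs. They had been picked above as the lowest with the same sign in every pair of both clones, so this sign was fixed by that choice. Of the 112 genes 35 were lower and 8 higher in every episomal pair, and the share of all features is not given. The Ube2e differences were largest with LIF, where Ube2e2 measured -1.99 against -1.12, Ube2e1 -1.06 against -0.50 and Ube2e3 -0.90 against 0.14. The test of the difference between the clones called none of the 112, with 30 at an unadjusted p under 0.05, where 0.47% of all features were higher and 0.353% lower in the integrated clone's change, 0.823% in all. The smallest adjusted p-values were those of Ube2ql1 (0.58 lower in the integrated clone, adjusted p = 0.0704), Ube2f (0.40 lower, adjusted p = 0.0762), Usp48 (0.89 higher, adjusted p = 0.08) and Ube2e1 (1.09 lower, adjusted p = 0.0832, all by limma). The response to a medium did not differ between transgenic and parental lines in any called gene, for either medium, among the 112 or among all features, and 13 and 11 of the 112 had an unadjusted p under 0.05 (5.49% and 6.63% of all features).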

How the data were processed

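RNA of 40 mouse ES cell samples was hybridised with Cy3 label against a Cy5-labelled reference RNA on Agilent arrays of 3 designs and read, per the labels, with Agilent Feature Extraction, whose deposited files give the intensity of each spot and of its local background in both channels. A second deposited table holds log10 values of the sample channel, which the authors normalized after correcting Cy5 for ozone bleaching, and 1 of its columns, read as a score, also holds a code for missing values.

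Spot and background intensities were corrected with normexp (offset 50) and loess-normalized within arrays in limma 3.58.1 (R 4.3.3), control spots being given no weight in the loess and then left out together with spots flagged as outliers. This removed 18 late values in 10 of the genes and none elsewhere, so means over fewer arrays are stated as such. No further filter was applied to low values. A probe no brighter than 95% of the negative control spots on every array of a group was treated as having only a bound there. The median Cy3 intensity per array ranged from 531 to 776 and that of its local background from 365 to 390, and the number of arrays limits the precision. Probes were named through accessions matched to a RefSeq gene table, through identical probes on another design or through a probe list of the study, and 102, 139 and 140 probes of the genes described were found on the late, early and Nanog designs. Genes with several probes were read from the brightest.

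Each experiment was fitted separately over all its features with lmFit and eBayes, using 20701, 38995 and 37680 features, p-values being adjusted by the Benjamini-Hochberg method over all of them. The time courses were tested by the F statistic over all times, media within lines, and the Nanog clones against their parental lines within media. A call needed an adjusted p of at most 0.05 and a change of 1.5-fold. The fits were tested on simulated data. A few genes that enter the counts are not reported here by name. By rule the genes named were the 4 largest calls per class and direction on the late arrays, the 3 largest per direction in the other comparisons, the ubiquilins and a list of well-studied members of these families, and the other calls are named mostly with a single value. The genes, the lists and the alternatives were chosen with earlier results of these data known. The normalization, the sample channel alone, the authors' table, the bleaching correction, dim probes, several probes per gene, the study's error variance, blocks and left-out arrays were varied.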

Additional observations from a re-analysis of the deposited data

Results flagged for a closer look

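At 24 hr of Tet, 10 genes moved in opposite directions by the ratio on the late and the early arrays, every late array of 24 hr lying on one side of its 0 hr arrays and every early array on the other. The difference itself was not tested, and such genes were not counted over all features. By the sign of the change alone, 41 of the 96 genes on both designs were opposite, and 5073 of 11257 genes overall. By the Cy3 intensity after loess within arrays, 5 of the 10 changed in the same direction in both experiments. They were Ube2l3 (0.78 late and 0.09 early), Usp14 (0.45 and 0.19), Ube2j1 (0.04 and 0.35), Usp8 (-0.06 and -0.13) and Fbxo5 (0.59 and 0.02). Ube2o (0.65 and -0.03) and Usp10 (0.58 and -0.07) were close to 0 on the early arrays. By Cy3 alone, quantile normalized between arrays, Ube2o changed by 0.58 and 0.01, in the same direction. By the ratio Fbxw4 changed by -1.10 on the late and 1.64 on the early arrays, where its Cy3 changed by 0.16, and Ube2l3 by 0.83 and -0.26. The Ube2l3 probes of the late and early designs differ in sequence, and another early probe, of nearly equal brightness (mean log2 intensity 10.59 against 10.66), changed by 0.63. Usp10, a protease of p53, changed by 0.58 and -0.33, Fbxo5 by 0.52 and -0.35, and Ube2o by 0.51 and -0.21. Usp14, a protease of the proteasome, changed by 0.45 and -0.23, and Ube2j1, a conjugase of the endoplasmic reticulum, by 0.21 and -0.29. Usp8, a protease of endosomes, changed by -0.25 and 0.13, Fbxw7 by -0.25 and 0.23, and Ube2e2 by -0.16 and 0.35. Of these 20 changes, those called by the test of 24 hr alone were Fbxw4 in both experiments and Ube2l3 on the late arrays.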

How the results depend on the processing

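The late time course gave 42 to 47 calls among the ubiquitin genes when each array was left out in turn, and no late call changed its direction at its peak time. Of the 44 late calls, 39 were kept with median centring, 40 with the authors' table, 42 each with Cy3 alone, the bleaching correction and the error variance of the study's methods, and 42 to 44 when an array was left out. The early time course gave 7 to 20, with 7 and 8 without either of the 0 hr arrays, and 1 with that error variance, and with Cy3 alone 7 of its 16 calls were kept and 1 (Fbxo3, 0.89 by the ratio and -0.09 by Cy3 alone) changed direction. LIF withdrawal gave 1 call with median centring, 0 with the bleaching correction, 0 with that error variance, 0 without the line as a block, and 0 to 3 when a line was left out (0 without the Nanog_integrated clone or MG1.19, 1 without the arrays labelled Nanog_episomal). RA gave 4 to 11 calls when a line was left out. The 6 pairs gave 1 call with additive terms. The integrated clone gave 0 calls with that error variance and 6 to 13 when a pair was left out. With the replicate block the late arrays gave 44 calls and the early arrays 22 (15 higher and 7 lower, with all 16 kept). Deviations of arrays with the same replicate number correlated at -0.43 to 0.75 (late) and -0.14 to 0.34 (early). The median was 0.19 (late) and 0.12 (early), against -0.13 and -0.12 for other numbers. All 10 early and 11 of 18 late arrays correlated best with arrays of their own number. The main fits did not use the number, and what it stands for was not tested. Chosen after the data had been seen, leaving out the 6 hr arrays gave 22 early calls and testing symbols alone 23.

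Over the called genes named by the rule, 25 on the late arrays, 6 of 675 late values with another setting no longer passed, 41 of 199 early, 22 of 39 for LIF withdrawal, 14 of 78 for RA and 36 of 143 for the integrated clone. On the late arrays these included Usp16 with Cy3 alone (0.55) and Usp45 (-0.44) and Usp13 (-0.57) with the authors' table. Of all features called, 57.8% were higher on the late arrays and 72.6% with the authors' table, 41.2% in the integrated clone, with 29.6% by median centring and 55.3% by Cy3 alone, and 46.8% without LIF, with 25.4% after the bleaching correction. Processed signals and the authors' table shifted the median of all features on the early arrays by -0.11 to -0.16 at some times. The cause of these shifts was not tested. A block for the day of feature extraction was not run, since the late and the early arrays each had 1 day and in the Nanog experiment the day and the parental background cannot be told apart. On the late arrays 16.3% to 30.2% of probes lay below the negative controls, and 4 of the genes, Fbxl12os, Fbxl17, Fbxo48 and Ube2k, did so on every array, so their changes were not detectable there.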
